A study of Danio rerio with 9 samples.

Results

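Keratins were represented on the zebrafish array by 44 of its 21495 probes, with 35 of its 18561 distinct gene or transcript names, which were taken by a rule on the annotation of the array: a gene name of the krt or cyt1 kind or cki, or a description that holds the word keratin, which also brings in the gene printed as ckii. Of these, 7 probes were placed with the simple epithelial keratins (krt8 and krt18) and 18 with the skin-type keratins (krt4, cki, cyt1, transcripts described as the type I cytokeratin of the enveloping layer, and ckii, which RefSeq now calls krt5). The other 19 have descriptions too general for either class. No probe was found under the name cyt1l. A further 9 probes have clone names in the files and are keratins only by their RefSeq name (krt18b, krt15, krt91, krt95, krt97 and another krt4 probe), and they are described beside the members but are not counted among them.

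The arrays were made to follow transcripts in the inner ear while it recovers from loud sound. Controls were adult zebrafish kept in the same chamber with the sound turned off, and the other 2 groups were adult fish that had been exposed to a loud low-frequency tone and were killed 2 days (Day 2) or 4 days (Day 4) later. Both whole ears of every fish were dissected, with saccule, lagena, utricle and semicircular canals together, and the ears of 18 to 20 fish made up 1 RNA pool for each group. Each pool was hybridized to 3 arrays, so that arrays of one group repeat the same RNA, and every P-value given here measures the spread between hybridizations and not between fish. No strain, genotype or sex is stated in the sources used here. In such a bulk sample, fewer cells of a type and less RNA per cell cannot be told apart.

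Keratins are the intermediate filament proteins of epithelial cells. A filament is built from pairs of an acidic type I keratin and a basic or neutral type II keratin, so that neither type forms filaments alone. Krt8 (type II) and krt18 (type I) are the pair of simple, single-layered epithelia, while krt5 (type II) and a set of type I partners belong to layered epithelia such as skin. In zebrafish, krt4 (type II), cyt1 and cki (type I) are known as genes of the superficial and enveloping layers of the embryonic and larval skin. Keratins are also known from the supporting and non-sensory epithelia of the inner ear. The genes lie in groups, and in RefSeq krt5, krt8 and krt18a.1 follow each other directly on chromosome 23, while cyt1, krt17 and krt91 follow each other on chromosome 19.

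Signals are given as log2 of the intensity relative to the median probe of the same array, so that 1 unit is a doubling, and levels of different probes are not set against each other. From 39.5% to 56.9% of the spots of an array were well above background. Day 4 replicate 2 had the lowest share and the highest detection floor (1.63, against -1.21 to 0.60 on the other 8 arrays). The arrays lay on 3 slides, and the third slide, with Control replicate 3, Day 2 replicate 3 and Day 4 replicates 2 and 3, had local backgrounds of 129 to 153.5 intensity units, against 63.5 to 74 on the other slides. The third slide was also scanned on a different day from the others, so that slide and scan day cannot be told apart for it. The tissue was checked by 8 probes for 7 inner ear genes: both probes of tectb and those of stm, myo7aa and atp2b1a were well above background on all 9 arrays, myo6b was so on 4 arrays, and otofa and oc90 on none.

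Of the 44 keratin probes, 15 were well above background on all 9 arrays, 11 on some arrays and 18 on no array. Among all probes, 37.3% were above background on all 9 arrays. By class, all 9 arrays measured 5 of the 7 simple epithelial probes, 9 of the 18 skin-type probes and 1 of the 19 probes without a class. The 18 probes not well above background on any array have only a bound there. Their fitted values are printed nowhere as levels, although they enter the counts and medians over the members.

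Significant regulation was called where the P-value, adjusted over every probe on the array, did not exceed 0.05 and the fold change was 1.4 or more, which is 0.49 on the log2 scale (limma, Benjamini-Hochberg adjustment). No keratin probe reached both thresholds in any comparison: 0 of 44 were called in Day 2:Control, where 0.735% of all probes were called, 0 of 44 in Day 4:Control, where 0.279% were called, and 0 of 44 in Day 4:Day 2, where 0.0651% were called. Without adjustment, 11 keratin probes had a P-value of at most 0.05 in Day 2:Control (8 higher and 3 lower), which is 25.0% of them against 9.31% of all probes. In Day 4:Control 5 did, all of them higher, which is 11.4% against 9.64%. In Day 4:Day 2 the number was 7, of which 4 were higher and 3 lower, and which is 15.9% against 9.13%. These shares count probes and not genes, and the 8 higher in Day 2:Control include several probes of krt4 and both of krt18. Of the 3 lower in Day 2:Control, TC278961 and TC267997 were above background on no Day 2 array. A t-test, the kind of test that the study names, was also run on the log2 values scaled here, with pairs by replicate number. It does not repeat the study's own calls, which list cki and krt91, under its clone name, as up-regulated in Day 4:Day 2. The study also names keratin 8 among the hair cell genes that it found regulated, without a direction in that passage. The t-test run here called 0 keratin probes in every comparison when paired and adjusted. That form called 222 of all probes in Day 2:Control but 0 in either comparison with Day 4, where its keratin count is therefore uninformative. When unpaired and adjusted, the test called 4 keratin probes in Day 2:Control (735 of all probes). It called 0 keratin probes in each of the comparisons with Day 4, with 22 (Day 4:Control) and 10 (Day 4:Day 2) of all probes called. The counts also changed when dim probes were left out of the fit. When limma was fitted only to probes above background on all arrays of at least 1 group compared, it called 5 of the 18 keratin probes that remained in Day 2:Control, where 8.98% of the 10040 probes were called. These were both krt18 probes, TC290801, TC279211 and, lower, a krt5 probe. TC290801 passed this filter only through Day 2, the group where it was higher, so that its call leans on the filter. In this fit 1 of 16 was called in Day 4:Control (9.14% of all probes tested) and 1 of 18 in Day 4:Day 2 (9.27%), and in both comparisons it was cki.

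Counting the probes whose 3 arrays in one group all lay beyond the 3 arrays of the other, Day 2 was above Control in 12 of the 44 (27.3%, against 15.6% of all probes) and below it in 6 (13.6%, against 8.80%). Day 4 was above Control in 9 (20.5%, against 15.6%) and below it in 0 (against 3.52%). Day 4 was above Day 2 in 8 (18.2%, against 12.8%) and below it in 4 (9.09%, against 5.97%). These are again counts of probes, and the 12 above Control on Day 2 include every krt4 and krt18 probe named so among the 44.

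In Day 2:Control the median log2 fold change was 0.19 for the simple epithelial probes and 0.18 for the skin-type probes, beside 0.12 for all probes. In Day 4:Control it was 0.31 and 0.27 for the same classes, beside 0.29. In Day 4:Day 2 it was 0.19 and 0.31, beside 0.24. The Day 2:Control median of the simple epithelial class is the fitted value of TC282646, and that of the skin-type class is the mean of TC279098 and TC279032, none of which was above background on any array, so that neither value describes a measured keratin. The first moved between 0.085 (without Control replicate 3) and 0.49 (without Day 2 replicate 3) when an array was left out, and the second between -0.16 (without Day 2 replicate 1) and 0.31 (without replicate 2 of either Control or Day 2). With the probes above background in a group they were 0.32 and 0.30. The Day 4:Control median of the skin-type class is the mean of wu:fa03a08 and TC278968. Of these, wu:fa03a08 was above background on only some arrays and TC278968 on none. The measured members are therefore taken up by gene.

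**Figure D1:**
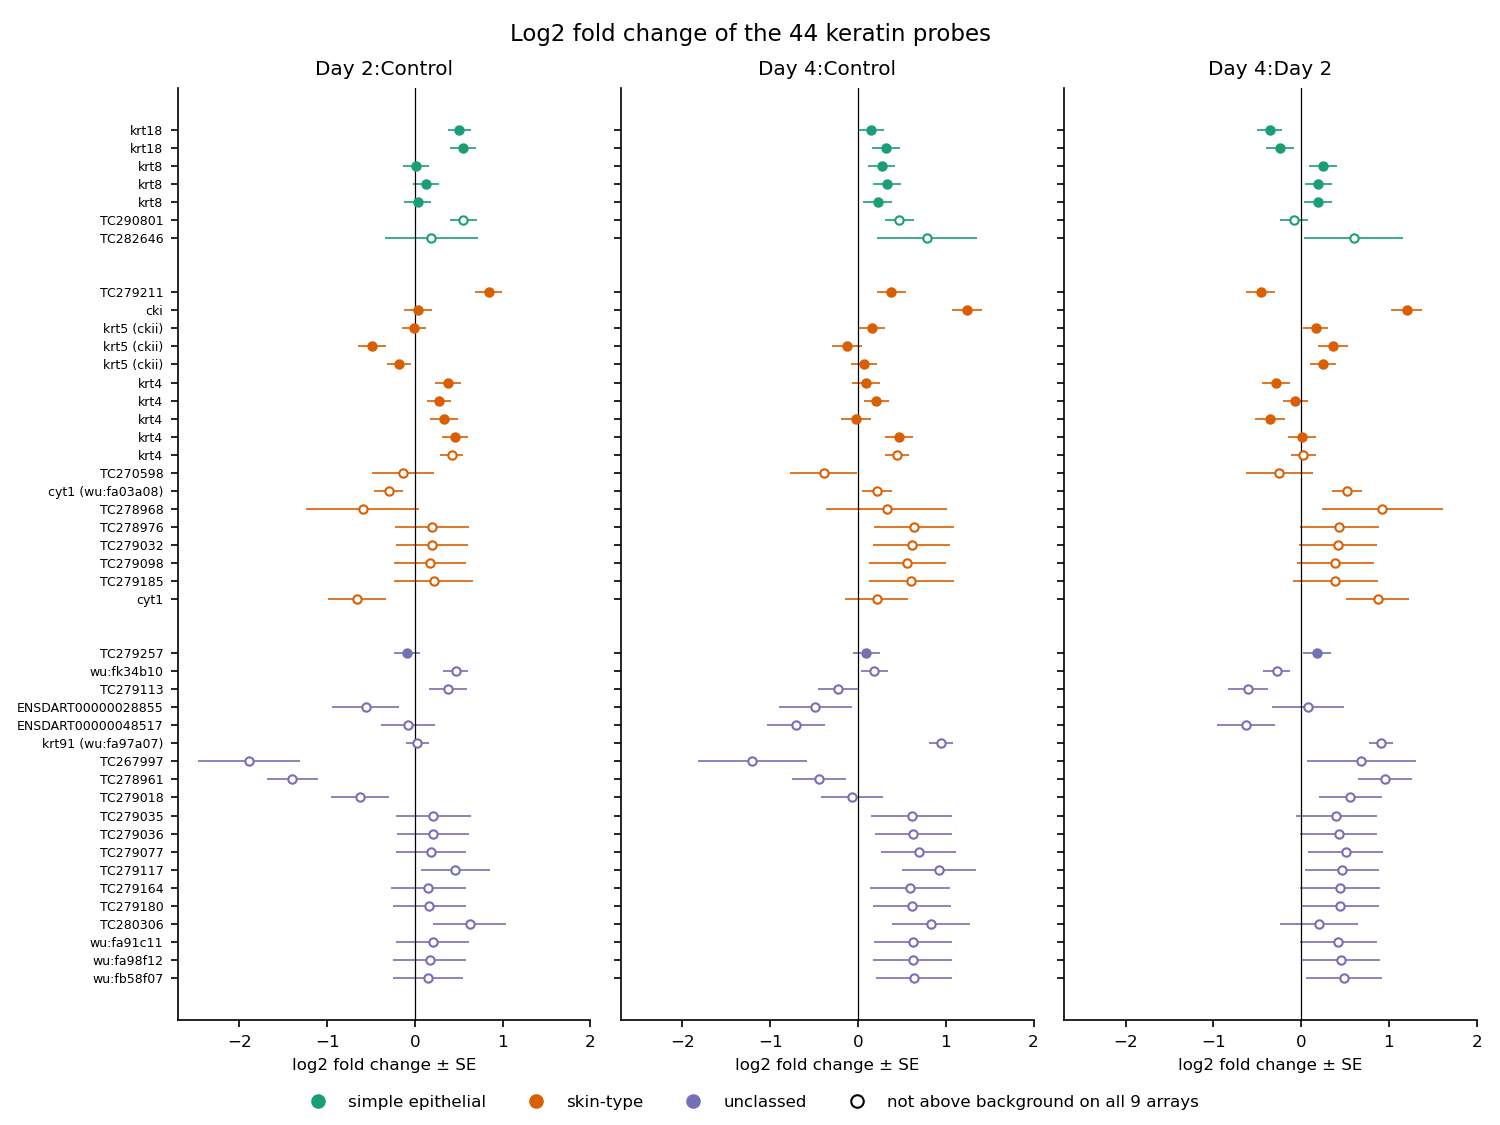
Log2 fold change (x axis, with its SE from the limma fit) of each of the 44 keratin probes (rows) in the 3 comparisons. Filled points are the 15 probes well above background on all 9 arrays, open points the other 29, and colors mark the 3 classes. In Day 2:Control the krt18 and krt4 probes lie to the right of 0 and krt8 near it, and in both comparisons with Day 4 the cki probe lies at 1.24 and 1.20.

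In Day 2:Control the genes of the simple epithelial pair gave different values, although the difference between them was not tested. Both krt18 probes were higher on every Day 2 array than on every Control array, by 0.51 and 0.55, while the 3 krt8 probes differed by 0.02 to 0.13. Neither gene passed the adjusted test. The first krt18 probe (A_15_P104600, chr23:5408133-5408192 on the danRer2 build) gave 5.56, 5.40 and 5.41 on the Control arrays, 6.05, 5.90 and 5.95 on the Day 2 arrays, and 5.64, 5.78 and 5.45 on the Day 4 arrays. Day 2 stood clear of both other groups, and Day 4 overlapped with Control. Its log2 fold change was 0.51 ± 0.13 (SE, limma, 3 arrays per group, adjusted p = 0.244) in Day 2:Control, 0.15 ± 0.14 (adjusted p = 0.552) in Day 4:Control and -0.36 ± 0.14 (adjusted p = 0.546) in Day 4:Day 2.

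The second krt18 probe (A_15_P108350, chr23:5408797-5408943) showed the same order of the group means. It gave 6.06, 6.04 and 6.12 on the Control arrays, 6.73, 6.58 and 6.57 on the Day 2 arrays and 6.31, 6.65 and 6.28 on the Day 4 arrays, where replicate 2 reached the range of Day 2. The Day 2:Control difference was 0.55 ± 0.15 (adjusted p = 0.256, limma), and within the 3 slides it was 0.67, 0.53 and 0.45. For the first probe the differences within slides were 0.49, 0.50 and 0.54, so that no single slide carried the difference for either probe. Left without Day 4 replicate 2, an array that is in neither group compared but shares the estimate of the spread, the fit called the first probe at an adjusted p of 0.0457. That fit called 579 of all probes in Day 2:Control, against 158 with every array. At the 75th percentile scaling the adjusted p was 0.0288 and 0.0467 for the first and second krt18 probe, with log2 differences of 0.44 and 0.48 that stay under the fold threshold. Another 2 probes are described only as partial keratin 18 transcripts. TC290801, which lies between the krt18 probes on danRer2 (chr23:5408688-5408747), was above background on 2 Control arrays, 3 Day 2 arrays and 1 Day 4 array and differed by 0.55 ± 0.15 (adjusted p = 0.260) in Day 2:Control, and TC282646 was above background on no array.

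The probes of krt8 were near level between Day 2 and Control. A_15_P117126 (unplaced on danRer2, as are the other krt8 probes) gave 10.65, 10.65 and 10.72 on the Control arrays, 10.72, 10.60 and 10.79 on the Day 2 arrays, and 10.65, 11.25 and 10.99 on the Day 4 arrays. The Day 2 arrays overlapped with the Control arrays, and the higher mean of Day 4 came from replicates 2 and 3, which share a slide. In Day 2:Control the 3 probes differed by 0.03 ± 0.15, 0.13 ± 0.15 and 0.02 ± 0.15 (adjusted p from 0.952 to 0.979, limma). In Day 4:Control they differed by 0.22 to 0.33 (adjusted p = 0.515 each), below the median of all probes for 2 of them and above it for A_15_P105758. Within slides these Day 4:Control differences were 0.00, 0.13 and 0.04 on the first slide and 0.40, 0.47 and 0.45 on the third.

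The other krt18 gene of zebrafish, krt18b, which is outside the 44 because the array lists it under a clone name, lay above Control on both days without passing the adjusted test. Its probe A_15_P106059 gave 5.49, 5.54 and 5.57 on the Control arrays, 6.07, 5.90 and 6.0 on the Day 2 arrays and 6.10, 6.24 and 6.04 on the Day 4 arrays. All exposed arrays lay above all Control arrays, and the Day 2 and Day 4 arrays overlapped. The differences were 0.46 ± 0.12 (adjusted p = 0.250, limma) in Day 2:Control and 0.57 ± 0.13 (adjusted p = 0.273) in Day 4:Control. The second krt18b probe, which overlaps the first on the genome, gave 0.51 ± 0.17 (adjusted p = 0.394) and 0.48 ± 0.18 (adjusted p = 0.499).

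**Figure D2:**
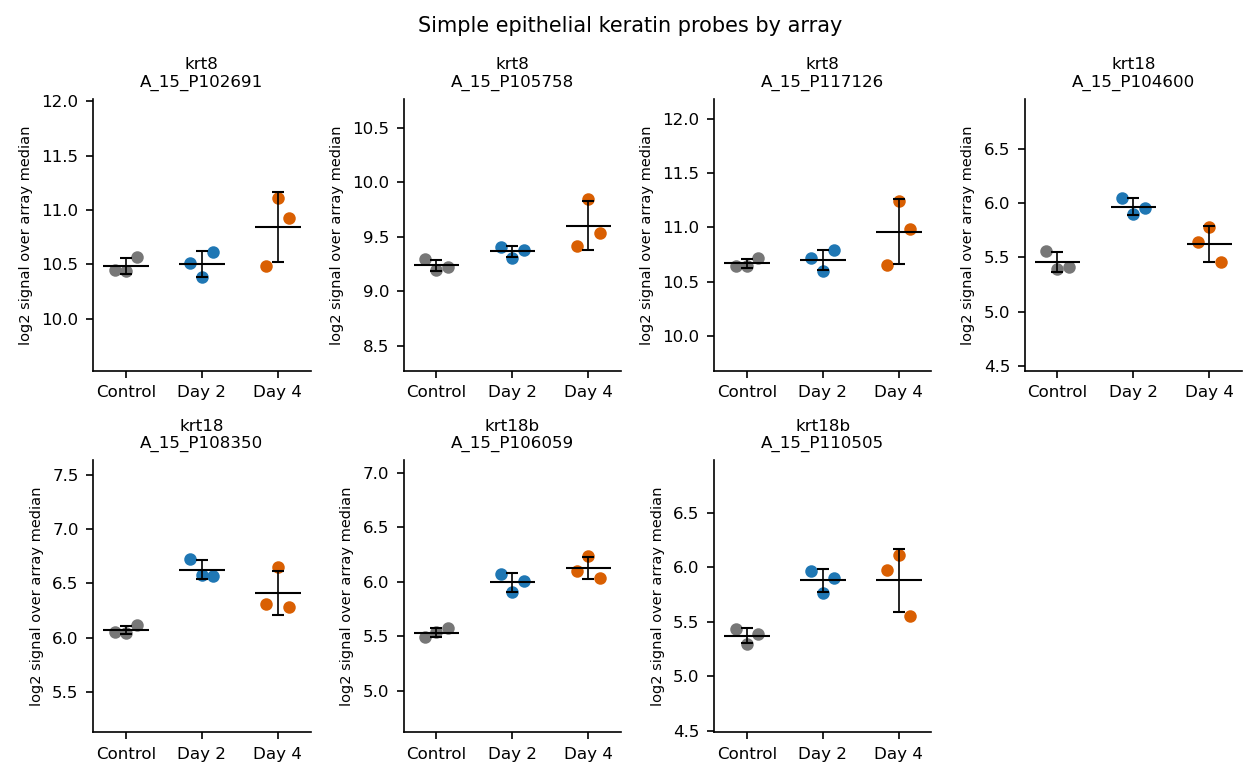
Log2 signal over the array median (y axis, the same span in every panel) of the krt8, krt18 and krt18b probes on the 3 arrays of Control, Day 2 and Day 4. Points are arrays from replicate 1 at the left to 3 at the right, bars are the mean and its SD. The Day 2 points of both krt18 probes lie above all Control points, the krt8 points of these groups lie close together, and krt18b is above Control on both days.

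Among the skin-type keratins, the 5 krt4 probes formed the most even set. In every one of them the 3 Day 2 arrays lay above the 3 Control arrays, by 0.28 to 0.46 on the log2 scale, with adjusted p from 0.342 to 0.678 (limma). None reached the fold threshold of 1.4. The probe nearest to it, A_15_P117519 (chr6:22412906-22412965), gave 7.3, 7.03 and 7.13 on the Control arrays, 7.72, 7.53 and 7.59 on the Day 2 arrays, and 7.51, 7.88 and 7.63 on the Day 4 arrays. Day 2 and Day 4 overlapped each other and both stood above Control, with 0.46 ± 0.15 (adjusted p = 0.364) in Day 2:Control and 0.47 ± 0.16 (adjusted p = 0.443) in Day 4:Control.

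The krt4 probes did not agree on Day 4, where their Day 4:Control differences spread from -0.03 to 0.47. A_15_P116354 (chr6:22410988-22411131) gave 2.74, 2.62 and 2.74 on the Control arrays, 3.11, 2.96 and 3.03 on the Day 2 arrays, and 3.01, 2.64 and 2.38 on the Day 4 arrays. Here Day 4 replicate 1 lay with the Day 2 arrays and replicates 2 and 3, on the third slide, lay among or below the Control arrays. Its difference was 0.33 ± 0.16 (adjusted p = 0.676) in Day 2:Control and -0.03 ± 0.17 (adjusted p = 0.931) in Day 4:Control, with 0.27 within the first slide and -0.23 within the third. A_15_P105051 was above background on 1 Day 4 array, and the other 4 krt4 probes on all arrays. The further krt4 probe that only RefSeq names was above background on none.

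The 3 probes of krt5, the type II keratin of the basal layer of skin in mammals, were level or lower in Day 2:Control. A_15_P105661 (chr23:5273000-5273056) gave 9.06, 8.97 and 9.03 on the Control arrays, 9.08, 8.94 and 9.02 on the Day 2 arrays, and 9.09, 9.41 and 9.16 on the Day 4 arrays. Control and Day 2 overlapped throughout (-0.01 ± 0.13, adjusted p = 0.990, limma). A_15_P110790 (chr23:5273936-5274085) gave 5.64, 5.49 and 5.41 on the Control arrays, 4.84, 5.16 and 5.09 on the Day 2 arrays, and 5.50, 5.40 and 5.16 on the Day 4 arrays. All Day 2 arrays of this probe lay below all Control arrays, by -0.49 ± 0.16 (adjusted p = 0.374), and within slides by -0.81, -0.34 and -0.32. The third probe differed by -0.18 ± 0.14 (adjusted p = 0.952). A probe without a class, TC279257, is described as a complete type II cytokeratin and overlaps A_15_P105661 on the genome, and like it was near level, at -0.09 ± 0.15 in Day 2:Control and 0.10 ± 0.16 in Day 4:Control.

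Krt15, a type I keratin known from basal epithelial cells in mammals, was read by 1 probe that RefSeq names (A_15_P116155, chr11:7567967-7568118). It gave 5.77, 5.68 and 5.74 on the Control arrays, 5.47, 5.42 and 5.54 on the Day 2 arrays, and 5.79, 5.85 and 5.63 on the Day 4 arrays. Day 2 lay below both other groups without overlap, by -0.25 ± 0.12 (adjusted p = 0.686, limma) against Control, while Day 4:Control was 0.00 ± 0.13 (adjusted p = 0.993).

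**Figure D3:**
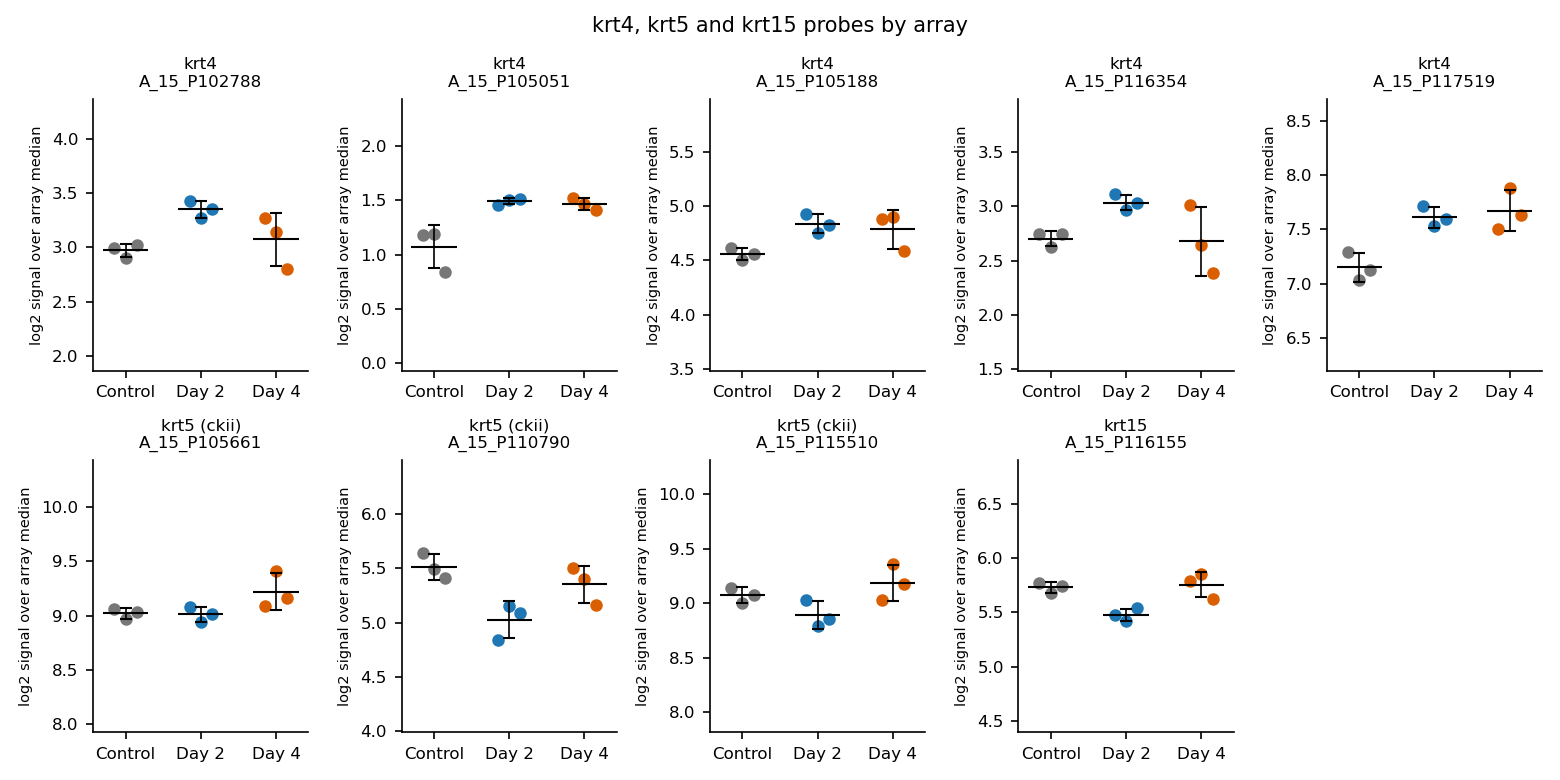
Log2 signal over the array median (y axis, the same span in every panel) of the 5 krt4 probes, the 3 krt5 probes, printed as ckii on the array, and the krt15 probe in Control, Day 2 and Day 4. Points are arrays, bars the mean and SD of 3 arrays. Day 2 is above Control in all 5 krt4 panels, and below it for krt15 and for the krt5 probe A_15_P110790.

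The largest fold change among the members above background on all 9 arrays was that of cki, and it was seen on Day 4. The probe of this type I cytokeratin (A_15_P117097, chr19:598880-598935) gave 3.99, 3.94 and 4.05 on the Control arrays, 4.07, 3.97 and 4.06 on the Day 2 arrays, and 5.04, 5.61 and 5.22 on the Day 4 arrays. Control and Day 2 overlapped (0.04 ± 0.16, adjusted p = 0.961, limma), and the lowest Day 4 array stood 0.97 above the highest array of both other groups. The fold change was 2.36 in Day 4:Control (log2 1.24 ± 0.17, adjusted p = 0.0883) and 2.3 in Day 4:Day 2 (log2 1.20 ± 0.17, adjusted p = 0.127). Within slides, Day 4:Control was 1.05 on the first slide and 1.36 on the third. Cki was therefore not significantly regulated in the fit with the slide term to all arrays as scaled to the median. Without the slide term it was called at the same scaling (limma, adjusted p = 0.0105 in Day 4:Control and 0.0180 in Day 4:Day 2). That fit called 298 and 184 of all probes in these comparisons. With a variance trend and robust estimation it was called in both too, among 973 and 962 of all probes. It was also called when arrays were scaled to their 75th percentile (log2 1.14 ± 0.09, adjusted p = 0.0108, in Day 4:Control and 1.17 ± 0.09, adjusted p = 0.0166, in Day 4:Day 2). At that scaling 1.36% of all probes were called in Day 4:Control and 1.72% in Day 4:Day 2, and cki was the only keratin probe of the 44 called in either. Without Day 4 replicate 2 it was called in Day 4:Control as well (1.11 ± 0.09, adjusted p = 0.0421). That fit called 80 of all probes in Day 4:Control, against 60 with every array.

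The 3 probes of another type I keratin, krt91, gave the same order of groups. A_15_P103462 (chr19:583394-583453) gave 6.14, 6.04 and 6.11 on the Control arrays, 6.24, 6.12 and 6.15 on the Day 2 arrays, and 7.11, 7.70 and 7.44 on the Day 4 arrays. Its Day 4:Control difference was 1.27 ± 0.18 (adjusted p = 0.0901, limma), and that of A_15_P106235, whose position overlaps it, was 1.33 ± 0.18 (adjusted p = 0.0793), which are fold changes of 2.41 and 2.52. Neither passed the test in this fit, and both were called at the 75th percentile scaling (adjusted p = 0.0190 and 0.0141). Both were also called at the median scaling when the slide term was left out (adjusted p = 0.00982 and 0.00702). The Day 2:Control differences of these probes were 0.07 ± 0.17 and 0.13 ± 0.17. The krt91 probe that is among the 44, wu:fa97a07, was above background on 1 array of each group, and its fitted Day 4:Control difference of 0.94 ± 0.14 (adjusted p = 0.101) is no measure of size. The cki and krt91 probes lie within the same stretch of chromosome 19 on danRer2, from 581393 to 637448, which holds 17 of the 44 probes. Their sequences were not used here, so that whether one transcript could bind the probe of another was not tested.

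Most other keratin probes of this stretch were not well above background. Of its probes described as enveloping-layer type I cytokeratin, 6 were above background on no array, the probe named cyt1 among them, TC270598 was so on 4 arrays, and TC279211 (chr19:603720-603832) on all 9. TC279211 gave 2.13, 2.34 and 2.45 on the Control arrays, 3.11, 3.03 and 3.31 on the Day 2 arrays, and 2.86, 2.68 and 2.64 on the Day 4 arrays. The 3 groups did not overlap, with Day 2 highest. The difference was 0.84 ± 0.15 (adjusted p = 0.0975, limma) in Day 2:Control, a fold change of 1.79, then 0.38 ± 0.17 (adjusted p = 0.515) in Day 4:Control and -0.46 ± 0.17 (adjusted p = 0.493) in Day 4:Day 2. It was called in Day 2:Control when the slide was left out of the model (adjusted p = 0.0227), where 506 of all probes were called, against 158 with the slide. Cyt1 itself was near the limit of detection: beside the probe under its name, the second, wu:fa03a08, was above background on 2 Control arrays, 1 Day 2 array and 1 Day 4 array.

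**Figure D4:**
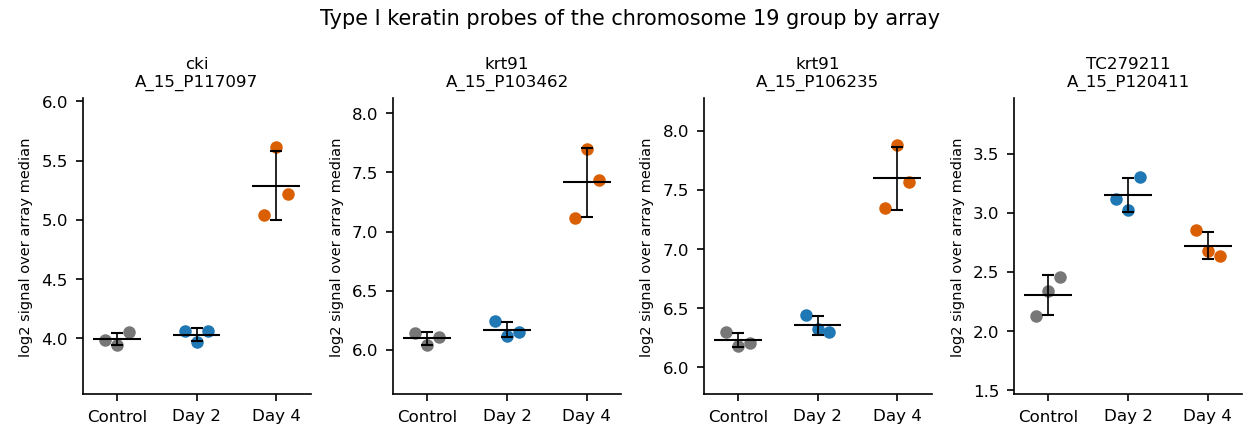
Log2 signal over the array median (y axis, the same span in every panel) of the cki probe, the 2 brighter krt91 probes and TC279211 in Control, Day 2 and Day 4. Points are arrays, bars the mean and SD of 3 arrays. For cki and krt91 the Control and Day 2 points lie together and the Day 4 points about 1 unit above them, while TC279211 is highest on Day 2.

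Of the 19 probes without a class, 11 were above background on no array and 7 on some arrays. TC278961, a type I cytokeratin of the same stretch of chromosome 19, was above background on 2 of 3 Control arrays (-0.51, -0.61 and -0.88) and on no Day 2 array (-2.18, -2.0 and -2.01). This was the single keratin probe called in Day 2:Control at the 75th percentile scaling (adjusted p = 0.0351), where 2.93% of all probes were called, and in the main fit it was not (adjusted p = 0.129, limma). TC267997, described as keratin gamma 3, had the same pattern of detection (adjusted p = 0.324). For both, the Control signal was below the detection floor averaged over the Day 2 arrays, so that no size of change can be given. Wu:fk34b10, described as similar to human keratin 5, was above background on all Day 2 arrays, on 2 Control arrays and on 1 Day 4 array, and differed by 0.47 ± 0.14 (adjusted p = 0.327) in Day 2:Control.

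Since the scaling of an array cancels when 2 signals of the same array are subtracted, the means of the probes of each gene were also expressed relative to the mean of the 3 krt8 probes, with the Control mean set to 0. The genes were chosen with their values known, and no test was made. Relative to krt8, krt18 was at 0.54, 0.50 and 0.36 on the Day 2 arrays, against -0.04 to 0.04 on the Control arrays. The mean of krt4 was at 0.35, 0.35 and 0.24 on the Day 2 arrays, against -0.07 to 0.07 on the Control arrays. The mean of krt5 was at -0.30, -0.21 and -0.35 on the Day 2 arrays, against -0.07 to 0.08 on the Control arrays. On every Day 2 array, the means of krt18 and krt4 were thus above all Control arrays on this scale and that of krt5 below them. The krt5 mean joins probes that differed by -0.49, -0.18 and -0.01 in Day 2:Control, so that it rests mostly on A_15_P110790. The Day 4 arrays were split for krt4 (0.29, -0.29 and -0.28) and krt18 (0.15, -0.16 and -0.25), with the first slide positive and the third negative. Krt5 was at -0.05, -0.42 and -0.39 on the Day 4 arrays, with the arrays of the third slide below all Day 2 arrays, and krt18b was at 0.53, 0.12 and -0.01. Cki was at 0.99, 1.01 and 0.87 on the Day 4 arrays and krt91 at 1.01, 1.02 and 0.98, against -0.01 to 0.02 for cki and -0.04 to 0.06 for krt91 on the Control arrays, so that both slides gave nearly the same value. Such a ratio shows that signals changed unequally and not which of them changed.

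**Figure D5:**
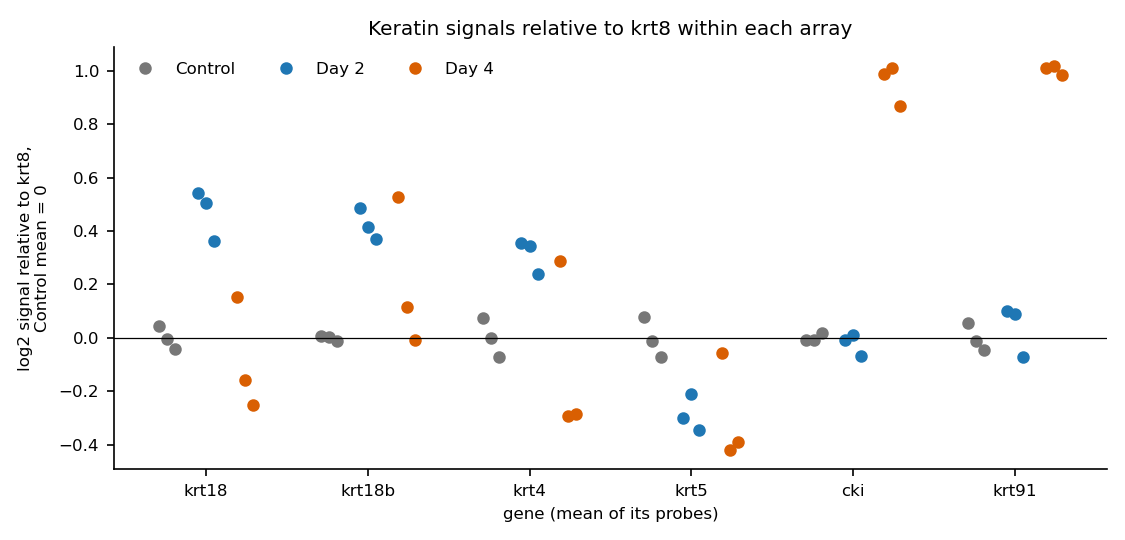
Log2 signal of krt18, krt18b, krt4, krt5, cki and krt91 relative to krt8 on the same array (y axis, mean of the probes of each gene, Control mean set to 0), for the 3 arrays of Control, Day 2 and Day 4. Each point is an array. On Day 2 krt18 (0.36 to 0.54), krt18b (0.37 to 0.49) and krt4 (0.24 to 0.35) lie above the Control arrays and krt5 (-0.35 to -0.21) below them, and on Day 4 cki (0.87 to 1.01) and krt91 (0.98 to 1.02) do.

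Epidermal genes other than keratins were read by 33 probes for 19 genes, of which 18 probes were above background on all arrays and 14 on none. Their summed signal, in multiples of the array median, reached 2069 to 2235 on Day 2 and 1781 to 2224 on Day 4, against 1563 to 1650 on the Control arrays. It was thus higher on all exposed arrays than on all Control arrays. On Day 2 the krt4 and krt18 probes were higher too, but krt8, cki and krt91 were near level, and krt15 and a krt5 probe lower. On Day 4 cki and krt91 were higher. In multiples of the 75th percentile of each array the sum was 185 to 188 on Day 2 and 157 to 164 on Day 4, against 144 to 149 on the Control arrays. On this scale the sum was lower on Day 4 than on Day 2, whereas cki and krt91 were higher on Day 4. The probe of icn weighs most in both sums, with mean log2 signals over the array median of 9.65 on Day 2, 9.27 on Day 4 and 9.15 on the Control arrays. None of the 33 probes was called in any comparison at the median scaling, whereas at the 75th percentile scaling 5 were called higher in Day 2:Control, 1 higher in Day 4:Control and 2 lower in Day 4:Day 2. Their median log2 fold change was 0.21 in Day 2:Control and 0.44 in Day 4:Control, beside 0.12 and 0.29 for all probes. These medians are the fitted values of a tp63 probe and an anxa1c probe. Neither was above background on any array, so that the medians do not describe the measured epidermal probes. The nearest to a call in Day 2:Control was anxa2a, an annexin of epithelial membranes, at 0.73 (adjusted p = 0.0671, limma), followed by a probe of agr1 (0.78, adjusted p = 0.0988) and the tight junction gene cldnb (0.63, adjusted p = 0.138). In Day 4:Day 2 the values of anxa2a and this agr1 probe were -0.75 (adjusted p = 0.145) and -0.93 (adjusted p = 0.161). Among the 18 probes above background on all arrays, only those of cdh1, the epithelial cadherin, perp and cldni were level or lower in Day 2:Control. They gave -0.02 for cdh1, -0.09 for perp and -0.15 and -0.21 for the probes of cldni. The rest of the 18 were higher in Day 2:Control without passing the test, among them tacstd (0.73, 0.50 and 0.39), cldn1 (0.70) and icn (0.49). All 6 probes of tp63, the transcription factor that defines basal epidermal cells, and those of foxi3a and foxi3b, which mark epidermal ionocytes, were above background on no array. The part of skin or other non-sensory epithelium in the keratin signals was not tested.

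Inner ear genes had summed signals of 619 to 675 on Day 2 and 474 to 590 on Day 4, against 455 to 487 on the Control arrays, with 0 of 8 probes called. The sum is carried by the bright probes of tectb and stm, which encode proteins of the tectorial and otolithic matrix and differed by 0.50, 0.53 and 0.42 in Day 2:Control (adjusted p = 0.239, 0.256 and 0.396, limma). The hair cell genes gave 0.21 for myo7aa, -0.27 for atp2b1a and -0.53 for myo6b, which was above background on 4 arrays. Muscle genes were read by 28 probes for 12 genes. By the account of the dissection in the methods, no tissue from around the ear was carried along except possibly remains of the auditory nerve. Their summed signal was 347 to 388 on Day 2 and 256 to 313 on Day 4, against 360 to 386 on the Control arrays, so that Day 4 lay below the other groups while cki and krt91 lay above them. In Day 4:Control 4 of the 28 fell significantly (limma): a probe of actc1b by 1.69 (adjusted p = 0.0281), ckma by 1.50 (adjusted p = 0.0188), atp2a1 by 1.49 (adjusted p = 0.0292) and ckmb by 1.32 (adjusted p = 0.0299). A brighter actc1b probe, A_15_P112557, did not fall, at 0.23 (adjusted p = 0.515). At the 75th percentile scaling 8 of the 28 were called lower in Day 4:Control, 2 lower in Day 2:Control and 7 lower in Day 4:Day 2. Whether this difference in muscle transcripts has a part in the Day 4 keratin values was not tested.

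The partners of keratins in the cell were read for the most part by probes not well above background. Desmosomes and plakins, which anchor keratin filaments at cell junctions, had 9 probes for 7 genes, and only the 3 probes of jupa (plakoglobin) were above background, on all 9 arrays. These were level, at 0.01 to 0.09 in Day 2:Control and 0.11 to 0.15 in Day 4:Control, and 0 of the 9 were called. Intermediate filament genes other than keratins had 17 probes for 10 genes, and 3 of them were called, all lower in Day 2:Control and all of gfap, the filament protein of glial cells. Gfap fell by 1.11 (adjusted p = 0.0308), 1.13 (adjusted p = 0.0312) and 0.99 (adjusted p = 0.0464, limma) at its 3 measured probes, and at the 75th percentile scaling 3 probes of the list were called lower in Day 4:Control as well. Vim, the filament of mesenchymal cells, differed by 0.21 and 0.06 at its probes (adjusted p = 0.884 and 0.952).

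The genes whose signals were most like those of each class were sought among named probes above background on all 9 arrays, by Pearson correlation over the 9 arrays with the mean of the class's probes that all arrays measured. For the 5 simple epithelial probes these were snx12 (r = 0.991), wdr46 (0.991), tek (0.988), copb2 (0.987) and ufm1 (0.986). For the 9 skin-type probes they were alox12 (0.987), gsto1 (0.983), cul5a (0.977), steep1 (0.976) and dusp2 (0.974). The points are 9 arrays of 3 RNA pools that share their scaling and slides, and the values are a description. None of these 10 probes was called in any comparison.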

How the data were processed

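Transcripts were measured in 9 single-dye Agilent oligonucleotide arrays, 3 for each of the Control, Day 2 and Day 4 RNA pools. The intensity of the spots was deposited by the authors as Agilent Feature Extraction 9.5.1 gives it, corrected for background within each array and not scaled between arrays. Their tables of pairwise comparisons, which hold fold changes, P-values and averaged values, were not used. After control spots and those with an outlier flag had been removed, log2 intensity was centered on the 50th percentile of each array, and the 2 spots of a probe were averaged. Dim probes were kept.

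All 21495 probes were fitted with limma 3.58.1 in R 4.3.3, with terms for group and slide, and P-values received the Benjamini-Hochberg adjustment over all probes. The thresholds were those of the methods, an adjusted P-value of 0.05 and a fold change of 1.4. Slides were read from the scanner output. Arrays of Control and Day 2 with equal replicate numbers shared a slide, and their deviations from the group means were correlated (0.50, 0.27 and 0.54), whereas the numbers did not pair Day 4 with the other groups (-0.06 to 0.12). Control replicate 2 and Day 2 replicate 3, on different slides, gave 0.23. Day 4 arrays and arrays of the other groups on the same slide gave -0.02 to 0.12. These correlations thus show no pairing by slide for Day 4, although the fit holds the slide term for all arrays. The fit was checked only on data simulated from its own model, which cannot show how well that model describes these arrays.

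Probes were classed by the gene name or description in the files and by the RefSeq symbol (GRCz12tu), found by accession, clone name, symbol or synonym, and a likeness to a human keratin in the description did not place a probe. Positions are those of the files on danRer2, and no gene annotation of that build was used, so that exons are not given. The keratins named are krt4, krt5, krt8, krt15, krt18, cyt1, cki and members called in any fit. From each other list the called probes are named, and for each class the 5 genes most like it. Krt18b, krt91, krt97, the partial transcripts, the probes nearest to a call and the other uncalled probes of the lists were named after their values were seen. The members and lists were chosen with earlier results of these data known. The alternatives were other scalings, background corrections, models, filters and tests, each array left out in turn, and members widened by RefSeq names, and scaling to the probes above background on all arrays was chosen after seeing the data. The number of arrays limits the precision. Python 3.11.15 with pandas 2.3.3, numpy 2.4.6 and matplotlib 3.10.9 was used for tables and plots.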

Additional observations from a re-analysis of the deposited data

Results flagged for a closer look

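A probe of krt97 (A_15_P118819), one of the keratins that only RefSeq names, lay below the Control mean on every Day 2 array (1.58, 1.51 and 1.49) and above it on every Day 4 array (1.94, 2.38 and 2.36), against 1.95, 1.81 and 2.01 on the Control arrays. The Day 4:Day 2 difference was 0.64 ± 0.16 (adjusted p = 0.313, limma) and is not significant in the main fit. With a variance trend and robust estimation, also fitted to all probes, it was called (adjusted p = 0.0011), among 962 of all probes. It was called in the fit to probes above background in a group (adjusted p = 0.000175), where 9.27% of the probes tested were called. Day 4 replicate 2 was not above background for this probe. The second krt97 probe differed by 0.22 ± 0.18 (adjusted p = 0.698) in Day 4:Day 2. Groups of 3 arrays are too small for a test of single outlying arrays.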

How the results depend on the processing

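The counts of keratin probes called (0 in each comparison) changed with several settings. In Day 2:Control the count was 2 with no slide term (506 calls over all probes). It was 1 at the 75th percentile scaling (629) and at the scaling to probes above background on all arrays (628). With a variance trend and robust estimation it was 6 (1014), with probes above background in a group 5 (902), and with the t-test run here, unpaired and adjusted, 4 (735). Paired and adjusted, this t-test gave 0 in each comparison (222, 0 and 0 calls over all probes). Without adjustment it gave 8 in Day 2:Control when unpaired and 6 when paired. In Day 4:Control the first 5 of these settings gave 1 each (298, 293, 292, 973 and 893 calls over all probes), and the t-test without adjustment gave 4 unpaired and 2 paired. In Day 4:Day 2 the same 5 settings gave 1 each (184, 369, 388, 962 and 913 calls over all probes), and the t-test without adjustment gave 3 unpaired and 1 paired. For the t-test without adjustment no count over all probes is given here. Whether its keratin counts exceed the share over the whole array therefore cannot be told. Over all settings with an adjusted P-value, the keratin probe of the 44 that was called in the comparisons with Day 4 was cki. With each array left out, the counts ranged from 0 to 2 in Day 2:Control and from 0 to 1 in Day 4:Control, and were 0 in Day 4:Day 2. Both were highest without Day 4 replicate 2, where 579 and 80 of all probes were called. The replicate block in place of the slide gave 0 keratin probes in each comparison, with 89, 57 and 13 calls over all probes in the comparisons in this order, against 158, 60 and 14 with the slide. Normexp background correction gave 0 keratin calls and 1, 0 and 0 calls over all probes.

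The class medians moved with more settings. For the simple epithelial class in Day 2:Control (0.19) the median was 0.53 with normexp, 0.32 with probes above background in a group, 0.11 at the scaling to probes above background on all arrays, 0.46 with members widened by RefSeq names and 0.085 to 0.49 with an array left out. For the skin-type class (0.18) it was 0.11 at the 75th percentile, 0.050 with normexp, 0.30 with probes above background in a group, 0.11 at the scaling to probes above background on all arrays and -0.16 (without Day 2 replicate 1) to 0.31. In Day 4:Control normexp gave -0.069 and -0.063 for the simple epithelial and skin-type classes, the scaling to probes above background on all arrays gave 0.16 for the skin-type class, and leaving out an array gave 0.20 to 0.44 and 0.18 to 0.44. In Day 4:Day 2 normexp gave -0.60 and -0.023, probes above background in a group gave 0.015 for the skin-type class, and leaving out an array gave 0.09 to 0.33 and 0.060 to 0.33. The cause of these differences was not tested. Under no setting was a named probe called in the direction opposite to its main value.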

Other observations

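The genes most like cki and krt18 were sought in the same way as for the classes, after their values had been seen. For the cki probe the highest correlations over the 9 arrays were with mknk2a (r = 0.993), clic5b (0.991), adh8a (0.989), the gene listed as LOC402808 (0.989) and nr4a1 (0.984). Of these, adh8a, an alcohol dehydrogenase, rose in Day 4:Control by 1.20 (adjusted p = 0.0421, limma), and the other 4 did not pass the test. For the mean of both krt18 probes the highest correlation was with a probe of tectb, a tectorin of the inner ear's extracellular membranes (r = 0.995, Day 2:Control 0.53, adjusted p = 0.256). It was followed by ttc1 (0.988), cd74b (0.988), meox1 (0.985) and tspan36 (0.983). These are descriptions over 9 arrays of 3 pools, with no test.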
